A study of Mus musculus with 15 samples.

Results

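The genes of the G1 cell cycle and Rb pathway were examined for copy number in liver tumours of mice that carried floxed alleles of the spindle checkpoint gene Mad2l1 and a Cre active in hepatocytes. The set comprised Cdkn2a, Cdkn2b, Ccnd1, Ccne1, Cdk4, Cdk6, Rb1, E2f1 and Cdkn1b, chosen by name. Of these 9 genes, 7 carried at least 1 probe under their own name, and Cdkn2b and Cdk4 carried 0 and were dropped. The 7 genes, with 10 probes between them, were taken from 19948 autosomal gene names of the array. Cdkn2a, Cdk6 and Rb1 had 2 probes each, and Ccnd1, Ccne1, E2f1 and Cdkn1b had 1.

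DNA of 5 hepatocellular carcinomas (HCC) and 3 unaffected livers from 3 mice was competed against reference DNA by array comparative genomic hybridisation on 15 arrays. All mice carried Albumin-Cre and 2 floxed alleles of Mad2l1, written Mad2(f/f) in the labels, in the strain given as C57BL/6.129-Mad2flox,p53flox,AlbuminCre. Albumin-Cre is active in hepatocytes, so the other cells of a liver or tumour keep the floxed alleles, and the unaffected livers carried the same alleles as the tumours. Mouse 3151, a p53(f/+) female of 16.4 months, gave HCC 1, HCC 2 and unaffected liver 1. Mouse 3760, a p53(f/f) male of 13.8 months, gave HCC 3 and unaffected liver 2. Mouse 4033, a p53(f/f) male of 13.9 months, gave HCC 4, HCC 5 and unaffected liver 3. The labels number the tumours within a mouse. HCC 1, HCC 3 and HCC 4 are tumour 2 of their mouse there, and HCC 2 and HCC 5 are tumour 1. The reference was liver DNA of a mouse of the opposite sex. Sex and Trp53 genotype cannot be told apart here, because the only female was also the only p53(f/+) mouse.

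Every value is a log2 ratio of tissue over reference DNA, centred so that the median autosomal probe of an array lies at 0. Dye-swapped arrays of one tissue were averaged, which left 1 value per tissue, and HCC 3 rested on 1 forward array with no dye swap. The scale of the assay can be read from the X chromosome, since tissue and reference differ there by 1 copy. Its median lay a mean of 0.92 from 0 in the 3 unaffected livers. The scatter of single autosomal probes around their chromosome median, as a scaled median absolute deviation, was 0.11 to 0.20 in the HCC, and 0.16, 0.09 and 0.08 in unaffected livers 1, 2 and 3. The targeted genes had 1 probe each. The Trp53 probe ranged from -2.07 to -0.19 in HCC and from -0.88 to -0.07 in unaffected liver. The Mad2l1 probe read -1.22 and -0.71 in HCC 1 and HCC 2, and 0.08, 0.53 and 0.59 in HCC 3, HCC 4 and HCC 5, so that the last 3 showed no reading below 0. It read 0.01 to 0.69 in unaffected liver. Whether these probes lie within the floxed stretches was not examined. A loss in a fraction of cells and a smaller fraction of tumour cells cannot be told apart in such bulk DNA.

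The pathway decides whether a cell leaves G1 and replicates its DNA. Cyclin D1 (Ccnd1) with Cdk4 or Cdk6, and then cyclin E1 (Ccne1) with Cdk2, phosphorylate the retinoblastoma protein (Rb1), which otherwise holds E2F transcription factors such as E2f1 in check. Cdkn2a encodes p16Ink4a, an inhibitor of Cdk4 and Cdk6, and p19Arf, which stabilises p53, while Cdkn1b encodes p27Kip1, an inhibitor of the cyclin-dependent kinases. Loss of the inhibitors or of Rb1 and gain of the cyclins are known alterations in human liver cancer.

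The sequences of the probes of Cdkn2a, Cdk6 and Rb1 are shown because the readings of these genes rest on the agreement or disagreement of 2 probes. They are given as the array files hold them, in lower case with no base singled out. The positions follow the files, which do not name a genome build, and whether a probe lies in an exon or an intron is not given there. The descriptions in the files tie each probe to the mRNA of its gene.

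Cdkn2a probe 1, chr4:88934358-88934417: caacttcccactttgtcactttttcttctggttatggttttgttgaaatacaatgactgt

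Cdkn2a probe 2, chr4:88938065-88938124: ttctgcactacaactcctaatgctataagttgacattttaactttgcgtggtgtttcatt

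Cdk6 probe 1, chr5:3420768-3420827: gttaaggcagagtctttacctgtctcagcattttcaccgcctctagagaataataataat

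Cdk6 probe 2, chr5:3515467-3515526: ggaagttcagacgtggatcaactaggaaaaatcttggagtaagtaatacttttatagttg

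Rb1 probe 1, chr14:73638144-73638203: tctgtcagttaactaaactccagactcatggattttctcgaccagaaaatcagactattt

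Rb1 probe 2, chr14:73639738-73639797: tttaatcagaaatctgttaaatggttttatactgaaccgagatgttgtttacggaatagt

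Each of these sequences is 60 bases long. Probe 2 of Rb1 had the lowest share of G and C of the 6, with 30.0%, and was the only member probe that fell short of well above background on an array, in 1 of 15. The other 5 held 35.0% to 38.3%.

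To ask whether the pathway genes were gained or lost in HCC, 5 HCC were compared with 3 unaffected livers across all 40726 autosomal probes with limma. At an adjusted p threshold of 0.05, 0% of autosomal probes passed, both for the log2 ratios themselves and for the ratios relative to the chromosome median, and so did 0 of the 10 member probes. Without adjustment, 3012 probes had a limma p below 0.05 for the ratios and 625 for the relative ratios. None of the 10 member probes was among them, the lowest unadjusted limma p being 0.0824 and 0.162. The limma adjusted p of the member probes ranged from 0.718 to 0.99 for the ratios and was 1.0 for all 10 relative to the chromosome.

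Gene levels, the mean of the probes of a gene, were then compared one gene at a time by an exact permutation test over 56 splits of the tissues, two-sided, whose smallest p is 0.0179. Cdkn2a was the only member with an exact permutation p below 0.05, beside 8.26% of all gene names. The tests treat the tissues of one mouse as separate samples. The plot of gene levels sets each member beside the median of its chromosome.

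**Figure D1:**
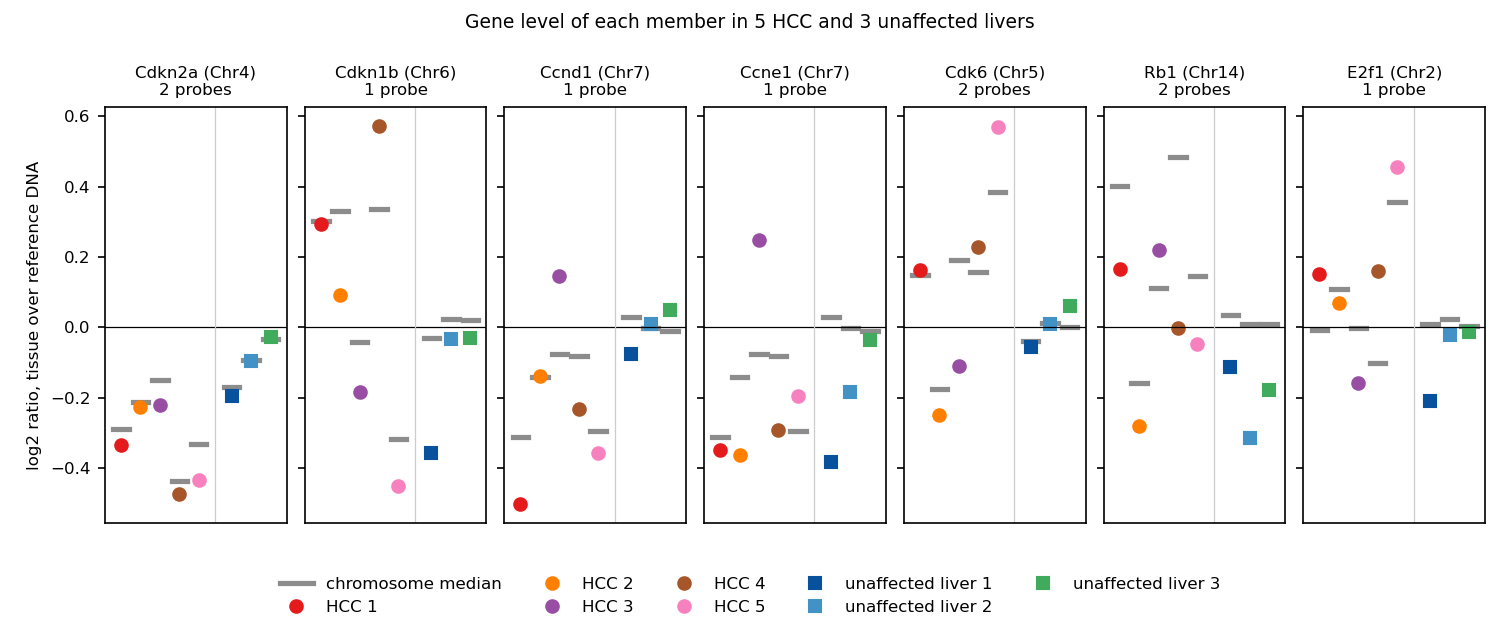
Gene level (vertical axis, log2 ratio of tissue over reference DNA) of the 7 members, each in a panel of its own, in 5 HCC (circles) and 3 unaffected livers (squares). Grey bars are the median of all probes of that chromosome in the same tissue. Cdkn2a lies on or close to its bar in all 8 tissues, while Rb1 lies below its bar in 7 of 8.

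Cdkn2a was lower in HCC than in unaffected liver, and it was lower together with the rest of Chr4. HCC 1 to 5 had levels of -0.33, -0.23, -0.22, -0.47 and -0.43. Unaffected livers 1 to 3 had levels of -0.19, -0.10 and -0.03. All 5 HCC lay below all 3 unaffected livers, as did those of 3.72% of gene names, and HCC 2 and HCC 3 lay close to unaffected liver 1. HCC 3 had a forward array only, whereas the levels of the livers averaged both dye orientations. On forward arrays, Cdkn2a probes 1 and 2 read -0.23 and -0.21 in HCC 3 and -0.24 and -0.27 in unaffected liver 2. HCC 3 was thus not below its own liver there. On the dye swap, unaffected liver 2 read -0.02 and 0.14. The HCC averaged -0.34 ± 0.12 (SD, n = 5) and the livers -0.11 ± 0.08 (SD, n = 3), which made a difference of -0.23 (exact permutation p = 0.0357). The lowest levels were those of HCC 4 and HCC 5, both from mouse 4033.

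The median of Chr4 ran close to Cdkn2a in each tissue. It was -0.29, -0.21, -0.15, -0.44 and -0.33 in HCC 1 to 5 and -0.17, -0.09 and -0.03 in unaffected livers 1 to 3, so that HCC 3 lay above unaffected liver 1 and the groups overlapped. Relative to that median, Cdkn2a was within -0.10 to -0.02 in the HCC and within -0.02 to 0.00 in the unaffected livers. The relative difference was -0.05, or 0.01 with forward arrays alone, and the range over 5 HCC shrank from 0.25 to 0.09, the narrowest of the 7 members. The 4 neighbours of each probe included the other Cdkn2a probe, 3.71 kb away. Probe 1 lay between -0.12 and 0.02 from their median in HCC and probe 2 between -0.06 and 0.09. Against 4 neighbours of other genes alone, a comparison added after the values were seen, they lay between -0.12 and 0.06 and between -0.07 and 0.07. The neighbours included a probe of Mtap, an enzyme of methionine salvage that is often deleted together with CDKN2A in human tumours, 111.64 kb from probe 1. The Mtap probe read -0.23, -0.52, -0.21, -0.40 and -0.36 in HCC 1 to 5 and -0.34, -0.17 and -0.04 in unaffected livers 1 to 3. In HCC 1 this probe was thus above own liver. A further Mtap probe, beyond the 4 neighbours, was below own liver in every HCC, with -0.31 in HCC 1 and -0.17 in unaffected liver 1. No Cdkn2a value reached the 0.92 that a difference of 1 copy made on the X chromosome. Cdkn2b, the gene of p15Ink4b next to Cdkn2a, had no probe under its name.

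The difference kept its sign in all 20 alternatives, from -0.29 to -0.18, but its exact permutation p was 0.05 or more in 11 of them. Among the 11 were the block by mouse and HCC 3 left out with its liver, where no p below 0.05 was possible. Among the 20 were the median over probes and the second Rb1 probe left out, which could not change Cdkn2a. With the tumours of one mouse averaged and set against its own liver, the mean of 3 mice was -0.21 ± 0.19 (SD, n = 3), with -0.09 in mouse 3151, -0.13 in mouse 3760 and -0.43 in mouse 4033, and the exact permutation p of 0.25 is the smallest that 3 mice allow. The -0.13 of mouse 3760 set a forward array alone against both orientations of its liver. Leaving out HCC 1, HCC 2, HCC 3, HCC 5, unaffected liver 2 or unaffected liver 3 also ended the call, with differences from -0.26 to -0.19. The tissues scanned on day 1 alone gave -0.27, and those of day 2, among which was a single liver, gave -0.15.

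Cdkn1b, the gene of p27Kip1, had the widest range of the members over the HCC, and its direction followed Chr6. Its probe (chr6:134874296-134874355) read 0.29, 0.09, -0.18, 0.57 and -0.45 for HCC 1 to 5. Unaffected livers 1 to 3 read -0.36, -0.03 and -0.03. HCC 1, HCC 2 and HCC 4 were above every unaffected liver and HCC 5 was below them all, so the groups overlapped. The HCC averaged 0.06 ± 0.40 (SD, n = 5) and the livers -0.14 ± 0.19 (SD, n = 3), and the difference of 0.20 was smaller than the SD of the HCC (exact permutation p = 0.482). The 2 tumours of mouse 4033 lay at the opposite ends of the range, 1.02 apart.

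The Chr6 median was 0.30, 0.33, -0.04, 0.34 and -0.32 in HCC 1 to 5, with the sign of the Cdkn1b probe in each of them. Relative to it the range over 5 HCC was 0.47. The probe lay within -0.22 to 0.25 of the median of its 4 neighbours, 2 probes of Gpr19 and 1 each of AK162146 and Apold1, in the HCC. On scan day 1 the difference was -0.29, and on day 2 it was 0.68, which rests on unaffected liver 1, the lowest of the 3 livers.

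The cyclins Ccnd1 and Ccne1 both lie on Chr7, and neither was gained in HCC as a group. The Ccnd1 probe (chr7:152118344-152118403) read -0.50, -0.14, 0.15, -0.23 and -0.36 for HCC 1 to 5 and -0.08, 0.01 and 0.05 for unaffected livers 1 to 3. Only HCC 3 was above the unaffected livers. The averages of -0.22 ± 0.24 (SD, n = 5) for HCC and -0.01 ± 0.06 (SD, n = 3) for livers differed by -0.21 (exact permutation p = 0.232). The Chr7 median differed by -0.19 between the groups, and relative to it the difference in Ccnd1 was -0.03. Ccnd1 was below own liver in 4 of 5 HCC and between -0.25 and 0.17 from the median of its neighbours over the 8 tissues. Among these neighbours were Oraov1 and Fgf15, whose human counterparts are amplified together with CCND1 in some cancers. Oraov1 read -0.20, -0.14, 0.27, -0.21 and -0.73 in HCC 1 to 5 and -0.13, -0.24 and 0.19 in unaffected livers 1 to 3. Fgf15 read -0.30, 0.195, 0.13, -0.25 and -0.48 in HCC 1 to 5 and 0.31, -0.24 and -0.01 in the livers.

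The Ccne1 probe (chr7:38885616-38885675) read -0.35, -0.36, 0.25, -0.29 and -0.19 for HCC 1 to 5. Unaffected livers 1 to 3 read -0.38, -0.18 and -0.03. HCC 3 stood alone above 0, and the other 4 HCC lay within the range of the unaffected livers. With -0.19 ± 0.25 (SD, n = 5) for HCC and -0.20 ± 0.17 (SD, n = 3) for livers, the groups were 0.01 apart (exact permutation p = 0.929). Its sign turned in 5 of 20 alternatives. Of the 20, the median over probes and the second Rb1 probe left out could not change Ccne1. Relative to Chr7, the HCC averaged -0.01 ± 0.23 (SD, n = 5) and the livers -0.21 ± 0.19 (SD, n = 3). That difference of 0.20 was the largest relative one of the 7 members. It lay between 0.09 and 0.32 in 23 alternatives, of which some, such as another centring of the arrays, could not move it. It was smaller than the SD of the HCC, and limma gave it an unadjusted p of 0.188 and an adjusted p of 1.0.

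The neighbours of Ccne1 gave no single level to set it against. A probe named C80913, 86.09 kb away, read -3.25 in HCC 3 and -3.55 in the unaffected liver of the same mouse, against 0.17 in unaffected liver 1 and -0.97 in unaffected liver 3. In HCC 1 and HCC 2, from the mouse of unaffected liver 1, it read -1.20 and -1.30, and in HCC 4 and HCC 5 -0.37 and -0.68. Other C80913 probes, beyond the 4 neighbours, read 0.04 and -0.12 in HCC 3 and -0.12 and 0.08 in unaffected liver 2. A probe of AK181724 119.33 kb to the other side read -1.46 in HCC 3 and -0.91 in unaffected liver 2, while a further probe of that name read -0.09 and 0.10. Ccne1 minus the median of the 4 neighbours was therefore 1.02 in HCC 3, and 0.27 in unaffected liver 2.

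Cdk6, the kinase partner of D-type cyclins, was highest in HCC 5. HCC 1 to 5 had levels of 0.16, -0.25, -0.11, 0.23 and 0.57, and unaffected livers 1 to 3 had -0.06, 0.01 and 0.06. HCC 1, HCC 4 and HCC 5 lay above all unaffected livers and HCC 2 and HCC 3 below them. The averages of 0.12 ± 0.32 (SD, n = 5) for HCC and 0.00 ± 0.06 (SD, n = 3) for livers differed by 0.12 (exact permutation p = 0.625). The value in HCC 5 stood on a Chr5 median of 0.38, and relative to it Cdk6 was at 0.18. Both probes were high there, at 0.50 and 0.64.

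The 2 Cdk6 probes lie 94.70 kb apart, and they parted most in HCC 3. Probe 1 read 0.03 in HCC 3, beside 0.05 for the 1 probe between it and the start of Chr5, whereas probe 2 read -0.26. The next probes, of AK030810 and 5830415L20Rik at 13.83 and 33.32 kb, read 0.62 and 0.79 in HCC 3 and 0.13 and 0.11 in unaffected liver 2. Probe 2 minus the median of its neighbours was -0.59 in HCC 3 and -0.15 in unaffected liver 2. It was 0.14 in HCC 5 and 0.21 in HCC 4. These neighbours included probe 1, and against the 3 of other genes HCC 3 stood at -0.88 and unaffected liver 2 at -0.16. HCC 3 had 1 array, and the scatter of its single probes was 0.20, the largest of the 8 tissues.

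**Figure D2:**
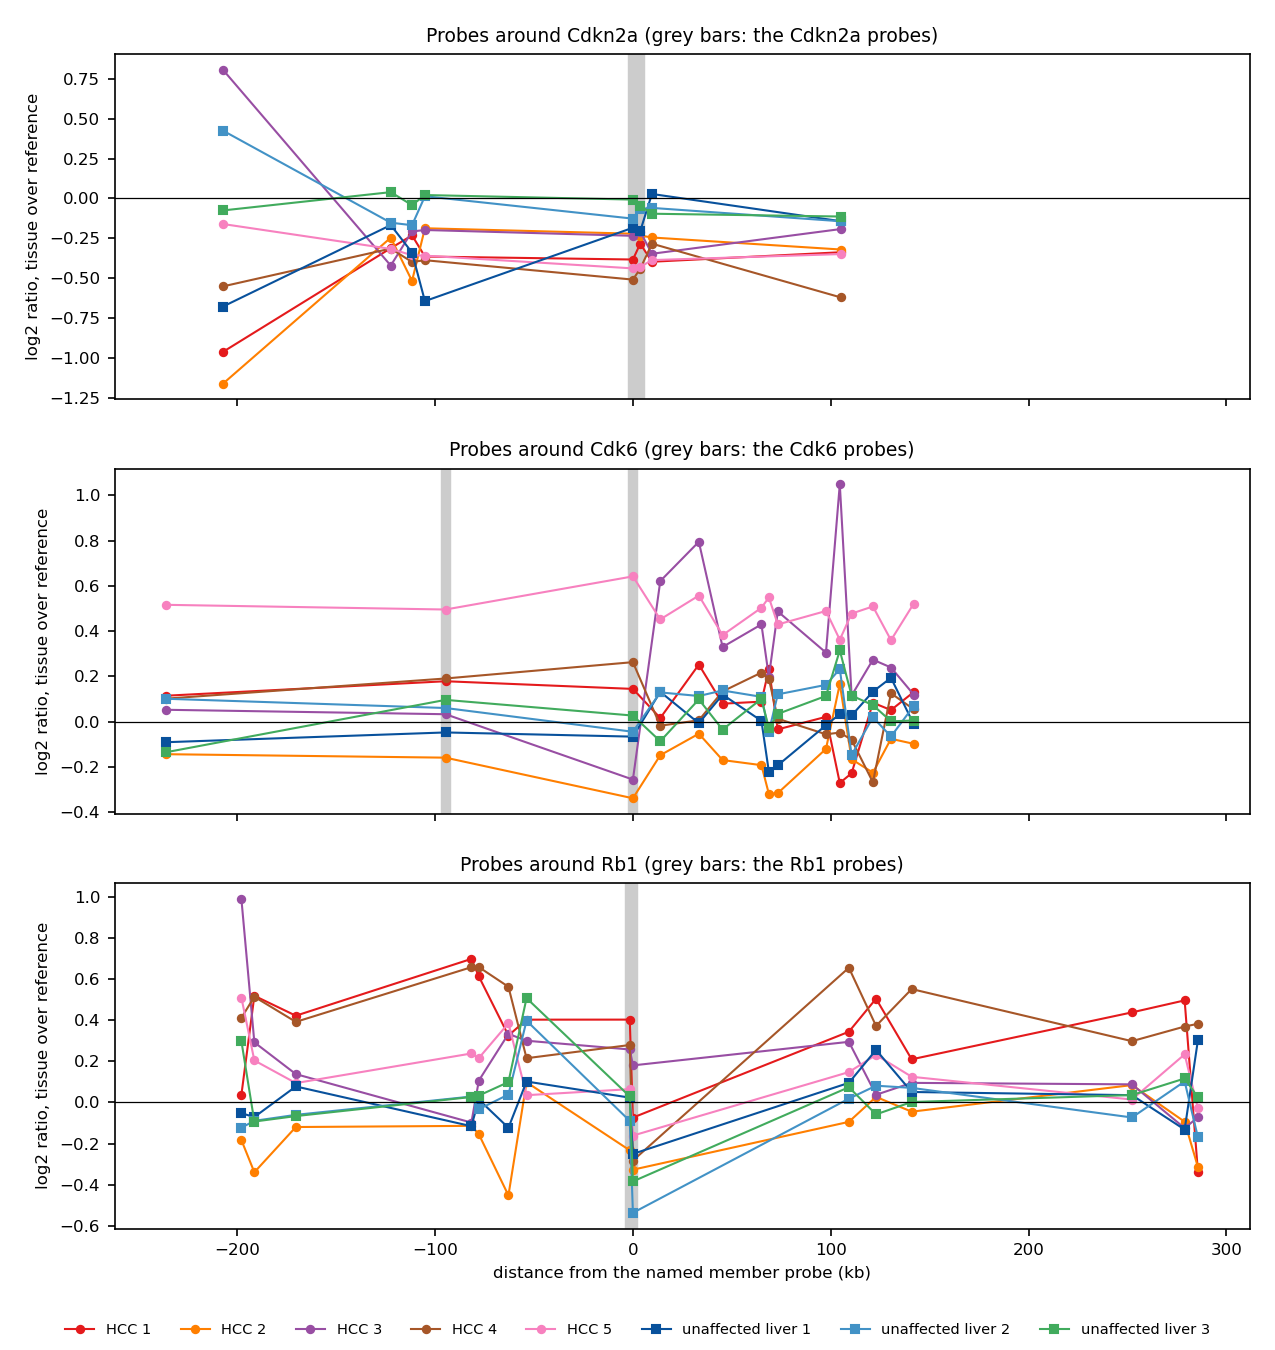
Log2 ratio of tissue over reference DNA (vertical axis) of single probes by their distance in kb from Cdkn2a probe 1, Cdk6 probe 2 and Rb1 probe 2 (horizontal axis), for up to 12 probes on either side within the range drawn. Lines join the probes of 1 tissue, and grey bars mark the probes of the named gene. Cdkn2a lies near the median of its nearest probes in each tissue, while single probes around it vary more widely. Cdk6 probe 2 lies below the probes to its right in HCC 3, and Rb1 probe 2 dips in all 8 tissues.

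Rb1, the substrate of these kinases, was read differently by its 2 probes. Probe 1 read 0.40, -0.23, 0.26, 0.28 and 0.06 for HCC 1 to 5, and 0.02, -0.09 and 0.03 for unaffected livers 1 to 3. Probe 2, 1.59 kb further on, read -0.07, -0.33, 0.18, -0.28 and -0.16 in HCC 1 to 5 and -0.25, -0.54 and -0.38 in the unaffected livers. It was the lower of the 2 in all 8 tissues.

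Probe 1 lay between -0.12 and 0.07 from the median of its 4 neighbours in all 8 tissues, one of which was probe 2. Probe 2 was below its neighbours in all 8, from -0.61 to -0.10 in HCC and from -0.59 to -0.35 in unaffected liver. Against 4 neighbours of other genes alone, probe 1 lay between -0.20 and 0.03 over the 8 tissues, and probe 2 was again below in all 8. The low reading of probe 2 was shared by the unaffected livers. The Chr14 median was 0.40, -0.16, 0.11, 0.48 and 0.15 for HCC 1 to 5, and between 0.01 and 0.04 in the unaffected livers.

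Over both probes, Rb1 averaged 0.01 ± 0.20 (SD, n = 5) for HCC and -0.20 ± 0.10 (SD, n = 3) for livers. The difference of 0.21 had an exact permutation p of 0.143, and 4 of 5 HCC were above own liver. With probe 1 alone, an alternative added after the values were seen, the difference was 0.17 (exact permutation p = 0.321), and relative to Chr14 it was -0.01. The lowest Rb1 level against own liver was -0.17, in HCC 2.

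E2f1, a transcription factor that Rb1 restrains, was highest in HCC 5 like Cdk6. Its probe (chr2:154385364-154385420, 57 bases) read 0.15, 0.07, -0.16, 0.16 and 0.46 for HCC 1 to 5 and -0.21, -0.02 and -0.01 for unaffected livers 1 to 3. HCC 3 was the only HCC within the range of the unaffected livers. The HCC averaged 0.14 ± 0.22 (SD, n = 5) and the livers -0.08 ± 0.11 (SD, n = 3), 0.22 apart (exact permutation p = 0.196). The Chr2 median was 0.36 in HCC 5 and between -0.10 and 0.11 in the other HCC, and relative to it E2f1 differed by 0.16. The probe lay between -0.14 and 0.18 from the median of its neighbours in the HCC. On scan day 1 the relative difference was 0.00, and on day 2, with unaffected liver 1 as its only liver, it was 0.35.

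To separate events at a gene from those of its chromosome, each HCC was set against the liver of its own mouse before and after the chromosome median was taken out. HCC 3 and HCC 5 shared a slide and a scan day with their livers. HCC 3 had a forward array only, and its liver had both orientations. HCC 1 and HCC 2 shared the scan day only, and HCC 4, scanned on day 2, shared neither with its liver, scanned on day 1. Of 35 pairs of a member gene and an HCC, 13 differed from own liver by at least 0.3 before, beside 36.5% of such pairs over all gene names. After the chromosome median was taken out 5 did, or 14.3%, beside 11.5% over all gene names. The median absolute difference was 0.22 before and 0.11 after, and 0.23 and 0.11 over all gene names. The members thus passed 0.3 about as often as the array did.

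The number of probes behind a gene bears on this count. Members with 1 probe held 4 of the 5 pairs, out of 20, beside 16.4% for gene names with 1 probe. Those with 2 probes held 1 of 15, beside 8.45% for gene names with 2 probes. The 5 pairs were all above own liver. They were Ccne1 in HCC 1 at 0.38, Ccne1 in HCC 3 at 0.51, Rb1 in HCC 3 at 0.43, E2f1 in HCC 1 at 0.38 and Cdkn1b in HCC 1 at 0.32.

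The 3 pairs of HCC 1 went with low readings of unaffected liver 1. Relative to their chromosomes, Ccne1, E2f1 and Cdkn1b read -0.41, -0.22 and -0.33 in that liver, the lowest of the 3 livers for each gene, and -0.04, 0.16 and -0.01 in HCC 1. Of all gene names 18.0%, 14.7%, 12.8%, 9.64% and 2.61% passed 0.3 in HCC 1 to 5. HCC 3 and HCC 5 shared a slide with their livers and the other HCC did not. An effect of slide on these shares was not tested. The pair of Rb1 in HCC 3 went with probe 2, which was 0.61 above its own liver relative to Chr14, while probe 1 was 0.24 above. Cdkn2a, Cdk6 and Ccnd1 held no pair past 0.3. Values just short of it were -0.30 for Cdk6 in HCC 3 and -0.30 for Rb1 in HCC 4.

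Against the reference DNA in place of own liver, 3 of 35 pairs passed 0.3 relative to the chromosome, beside 8.76% of such pairs over all gene names. They were Ccne1 in HCC 3 at 0.32, Cdk6 in HCC 3 at -0.30 and Rb1 in HCC 4 at -0.49. The last went mostly with probe 2 of Rb1, at -0.77 against -0.21 for probe 1, and probe 2 was also low in the unaffected livers. For Cdk6 in HCC 3, probe 2 stood at -0.45 and probe 1 at -0.16. Only Ccne1 in HCC 3 passed on both baselines, on 1 probe and 1 array.

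**Figure D3:**
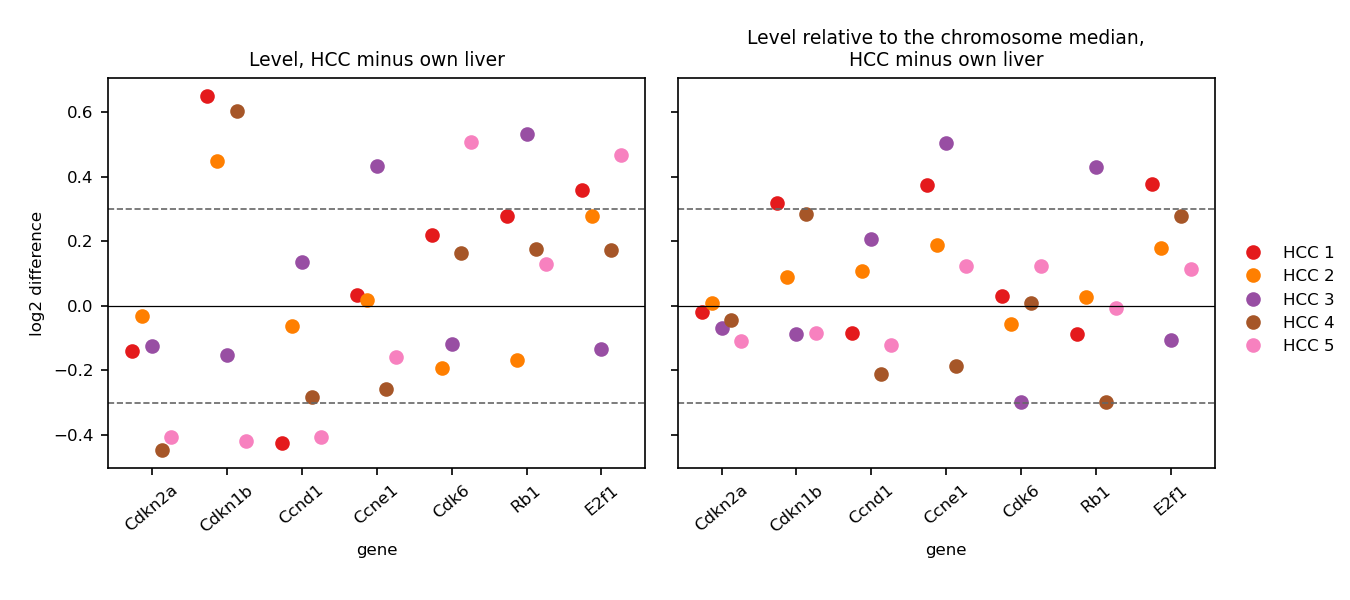
Difference in gene level between each HCC and the unaffected liver of the same mouse (vertical axis, log2) for the 7 members (horizontal axis), before (left) and after (right) the chromosome median was taken out. Points are the 5 HCC and dashed lines mark 0.3 on either side of 0. On the left 13 of 35 points reach a dashed line, on the right 5 do, and the Cdkn2a points close up around 0.

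The dye orientations of a tissue show how firmly a single probe was read. Over 10 member probes in the 7 tissues hybridised both ways, the absolute difference between orientations had a median of 0.19, against 0.20 over all autosomal probes. It reached 0.3 in 23 of 70 probe and tissue pairs, beside 32.9% of such pairs over all autosomal probes. The Ccnd1 probe was the least steady, with a median of 0.48 and up to 0.84. In HCC 4 the forward array read 0.19 and the dye swap -0.65, and in unaffected liver 2 they read -0.36 and 0.38. Probe 2 of Cdk6 and the Ccne1 probe had medians of 0.11 and 0.10. Probe 2 of Cdkn2a read -0.77 and -0.11 in HCC 4, so its deepest single-array value was not repeated on the other orientation.

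**Figure D4:**
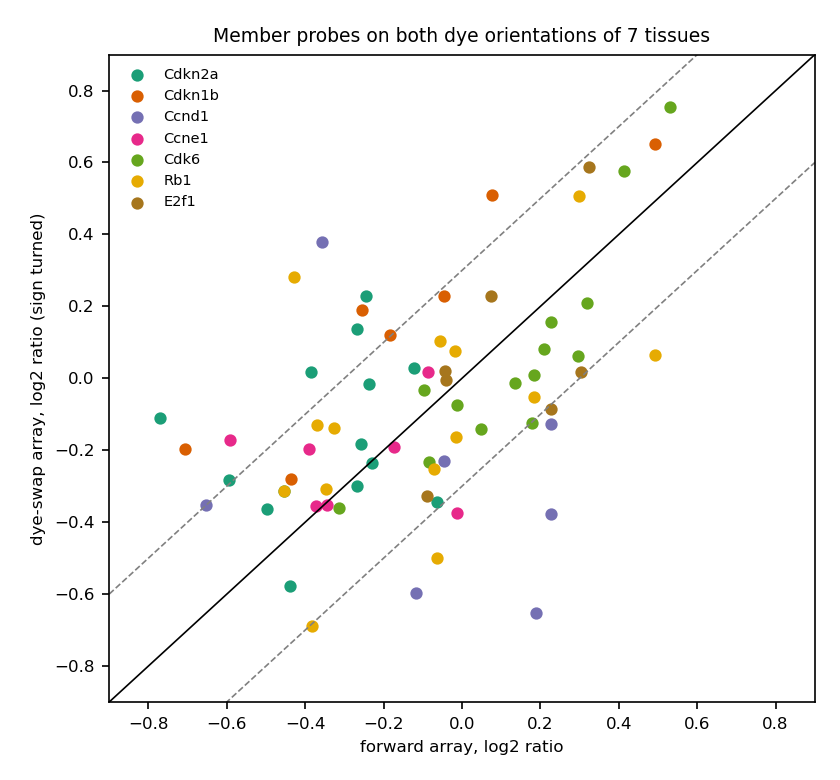
Log2 ratio of each member probe on the forward array (horizontal axis) and on the dye-swap array with its sign turned (vertical axis), for 7 tissues. The solid line marks equal values and the dashed lines a difference of 0.3. Ccnd1 supplies the points farthest from the line, up to 0.84 in HCC 4.

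Of 24 further genes of the pathway, listed for their role, 20 had a probe. Ccna2, Cdk2, Cdkn2d and Cks1b had none under their names. None of the 20 was called by limma, the lowest adjusted p being 0.375 for the ratios and 1.0 relative to the chromosome. Of their 41 probes, 2 had an unadjusted limma p below 0.05 for the ratios and 1 relative to the chromosome. Among their differences 6 lay above 0 and 14 below, with a median of -0.12, beside a median of -0.01 over all gene names. The members themselves had a median of 0.12. Of 100 gene and HCC pairs, 10 passed 0.3 relative to chromosome and own liver, or 10.0%, beside the 11.5% over all gene names.

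The largest differences above 0 were those of Skp2 and E2f6. Skp2, which marks p27Kip1 for destruction, lies on Chr15 and read 0.14, 0.16, 0.26, 0.58 and 0.56 in HCC 1 to 5 and 0.08, 0.06 and -0.01 in unaffected livers 1 to 3. All 5 HCC lay above all 3 unaffected livers, as did those of 6.06% of gene names, and the difference of 0.29 had an exact permutation p of 0.0714. Relative to Chr15 the difference was -0.17. E2f6, an E2F protein that represses transcription, differed by 0.09 with values from -0.43 in HCC 5 to 0.59 in HCC 1.

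The largest differences below 0 were those of Cdkn1c and E2f5. Cdkn1c, the gene of the inhibitor p57Kip2 on Chr7, differed by -0.32 (exact permutation p = 0.0714), and E2f5 on Chr3 by -0.25 (exact permutation p = 0.321). The only one of the 20 with an exact permutation p below 0.05, named after its value was seen, was Ccne2, beside 8.26% of all gene names. This second E-type cyclin lies on Chr4 like Cdkn2a. It read -0.19, -0.16, -0.13, -0.18 and -0.28 in HCC 1 to 5 and -0.07, -0.03 and 0.08 in unaffected livers 1 to 3, a difference of -0.18 (exact permutation p = 0.0179, the smallest that 56 splits give), and relative to Chr4 it differed by 0.01. Cdkn2c, the gene of the inhibitor p18Ink4c, and E2f2 are also on Chr4 and differed by -0.18 and -0.22, with relative differences of 0.01 and -0.03. Each of these 3 genes differed by about as much as the Chr4 median, whose own difference was -0.19.

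Over the 8 tissues, the gene names whose levels ran most like those of Cdkn2a were 5830415F09Rik, Galnt12 and Grhpr, with Pearson r of 0.98 to 0.99, all on Chr4. For Rb1 they were AK085301, 2200001I15Rik and AK042061 on Chr14, with r of 0.96 to 0.97. For Cdkn1b they were EG434008, Ninj2 and Moxd2 on Chr6, with r of 0.98 to 0.99. For Ccnd1 they were Ptpre, Snrp70 and Tsku on Chr7, with r of 0.98 to 0.99. Those for Ccne1 were Pbx2 on Chr17, Trpm4 on Chr7 and Rps27a on Chr11, and those for E2f1 were BC005624 and Dnm1 on Chr2 and Ap1g1 on Chr8. These are the highest of 19946 correlations over 8 tissues that share mice and slides, given as a description.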

How the data were processed

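Per the labels, the arrays were 2-colour Agilent slides, and per the file headers the authors read them with Feature Extraction 9.1.3.1 on 2 scan days. The deposited intensity values used here are the processed red and green signals, background-subtracted and dye-normalised by that software, and the mean and background signals served an alternative. The series matrix holds deposited log10 ratios that equalled those of the scanner files within 0.001 after signing, and served another. All deposited columns belonged to these arrays.

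The intensities gave log2 ratios of tissue to reference, with dye swaps turned in sign. Control spots and spots marked as outliers were left out, arrays were centred on the autosomal median with no loess, and the orientations of a tissue were averaged. Each member probe had 1 spot per array. Gene levels were means over probes, and relative levels had the median of all probes of the chromosome taken out. Neighbours were the 2 probes on either side, fewer at a chromosome end. The number of arrays limits the precision: signal over background ranged from 3.72 to 7.95, and 0.191% to 2.31% of spots were not well above background.

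Groups came from the labels. Limma 3.58.1 (lmFit, eBayes, two-sided, Benjamini-Hochberg adjustment) in R 4.3.3 tested 40726 probes, and exact permutation tests used Python 3.11.15, numpy 2.4.6 and scipy 1.17.1. Steps were tested on simulated data. The threshold of 0.3 is the one the study applied to copy number. Alternatives covered background correction, centring, dye, dim spots, GC content, scan day, slide, pairing and single tissues. The genes named were the members, their neighbours, the 3 most alike gene names (those for Cdk6 are not reported here), and, with no call among the 24 further genes, the 2 largest differences in each direction. Members and lists were chosen with earlier results of these data known. Tissues of one animal pair the groups: over all probes, deviations from the group means of an HCC and a liver gave r of 0.13 to 0.29 when both came from the same mouse, and of -0.21 to 0.09 otherwise.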

Additional observations from a re-analysis of the deposited data

Results flagged for a closer look

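The Ccne1 level of HCC 3 stood apart from those of the other 4 HCC. HCC 3 read 0.25 and the others -0.36 to -0.19, and the gap to the nearest was 0.724 of the range of the 5. Chance flags about 1 in 20 such groups, and 14 groups were examined. HCC 3 was measured on 1 array, and Ccne1 by 1 probe.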

How the results depend on the processing

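The number of probes called by limma was 0 for the ratios and for the relative ratios under all 19 alternatives run for each, replicate block by mouse included, with 1480 to 5091 and 241 to 1658 probes at an unadjusted p below 0.05. The number of members with an exact permutation p below 0.05, which was 1, became 0 with arrays centred on the mode, with forward arrays alone, with scan day as a term, with the replicate block by mouse and with HCC 3 and its liver left out, and ranged from 0 to 1 with single tissues left out. For Cdkn2a these settings gave differences of -0.29, -0.18, -0.22, -0.21 and -0.26. The block by mouse has a smallest exact permutation p of 0.25. With HCC 3 and its liver left out, too few splits remain for a p below 0.05. The count of 0 in both of these settings was therefore fixed in advance. The exact permutation p of Cdkn2a ranged from 0.0286 to 0.25 over its 20 alternatives.

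The sign of the Ccne1 difference turned to -0.043 with centring on the mode, to -0.0058 with GC content regressed out and to -0.091 with HCC 3 and its liver left out, and ranged from -0.0998 to 0.0926 with single tissues left out. The differences in level of the other 6 members kept their sign in these 20 alternatives, and within the scan days that of Cdkn1b turned, to -0.29 on day 1. Among the 20, the median over probes could change no member, and leaving out the second Rb1 probe could change only Rb1. The number of members whose relative difference reached 0.3 was 0 throughout, except within scan day 1 for Ccne1 (0.32) and scan day 2 for Cdkn1b (0.32) and E2f1 (0.35).

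The count of 5 gene and HCC pairs past 0.3 became 10 with forward arrays alone (17.4% over all gene names), 11 at a threshold of 0.2 (24.7%), 1 at 0.5 (2.75%), 3 against reference DNA (8.76%), 2 with the replicate block by mouse (8.98%) and 3 with HCC 3 and its liver left out (11.2%). It ranged from 2 to 5 with single tissues left out, and was 2 without HCC 1 (9.92%) or without unaffected liver 1 (8.34%) and 3 without HCC 3 or without unaffected liver 2 (11.2% each). With the block by mouse, or with tissues left out, the counts are out of fewer than 35 pairs, so the shares and not the counts compare. The cause of these changes was not tested, apart from the smaller number of tissues. Leaving out HCC 3 with its liver, and the second Rb1 probe, and taking neighbours of other genes alone, were alternatives chosen after seeing the data. A single probe read on 1 or 2 arrays limits what can be seen at Ccnd1, Ccne1, E2f1 and Cdkn1b.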
